A study of Rattus norvegicus with 8 samples.

Results

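ATF4 is the transcription factor of the integrated stress response, and 10 genes stand here for it and its amino acid stress targets: Atf4, Ddit3, Trib3, Asns, Chac1, Sesn2, Ppp1r15a, Psat1, Phgdh and Ddit4. They were listed by name and not by a rule on their values, although earlier results of these data were known at the time. Each was read from the probe set that the platform annotation gives to that gene alone. Of the 10 genes, 9 were measured in this way among 14506 genes in all, and Sesn2, a leucine sensor, was not analysed here. Psat1 had 2 such probe sets, of which the brighter was used, and each of the other 8 had 1.

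The samples were pancreatic islets of Sprague-Dawley rat fetuses, with the islets of 1 whole litter pooled on each array. In 4 IUGR litters the dam had surgery on embryonic day 18 that causes intrauterine growth restriction, and in 4 sham litters the dam had a control operation on the same day. All litters were collected on embryonic day 19, and the labels do not describe the surgery further or name a sort of cells after isolation. Values are log2 expression, so that a difference of 1 is a 2-fold change, and the litter is the replicate.

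Cells that run short of an amino acid load the kinase GCN2 with uncharged tRNA, and GCN2 phosphorylates the initiation factor eIF2. Stress of the endoplasmic reticulum does the same through the kinase PERK. General translation then slows while ATF4 protein is made in greater amounts, and ATF4 switches on genes for amino acid synthesis, uptake and tRNA charging, together with brakes on the response. Because ATF4 is controlled largely in translation, its own mRNA need not follow its activity, and its targets are commonly read instead. Beta cells, which make large amounts of insulin, depend on this pathway, and PERK deficiency causes diabetes in mice and people.

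ATF4 binds DNA with C/EBP partners at a composite element, searched here as TGATGNAAN on both strands of RefSeq promoter windows of assembly GRCr8. Each window runs from 250 bases before a gene's start to 50 after it. The element was present in the windows of 2 of the 10 genes, Trib3 and Chac1, and in 3.97% of 33469 windows of all genes. Among 17 cytosolic aminoacyl-tRNA synthetase genes with a window, whose enzymes charge tRNA, 7 held it. The sequences below are shown because they place the element of the 2 targets beside that of 3 synthetase genes and of Nupr1, which encodes a stress-induced chromatin protein. Each has 29 bases, 5′ to 3′ on the strand that reads the element forward, with the element in capitals.
Trib3: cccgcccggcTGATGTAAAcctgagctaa
Chac1: ctagcaggagTGATGCAACggcggagaag
Mars1: gagcccacgcTGATGCAACcggaacgggc
Tars1: gctaaccagcTGATGCAACgggacgccag
Iars1: cgtctggaggTGATGCAATactgacagtg
Nupr1: aagccctgtcTGATGCAATctggcctttt

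The Trib3 sequence lies at chr3:161275537-161275565 (forward strand), with the element 22 to 14 bases before the start of the gene, which runs on the other strand. The Chac1 sequence lies at chr3:126795953-126795981 (reverse strand), with the element 168 to 160 bases before the start. The Mars1 sequence is at chr7:65023753-65023781, that of Tars1 at chr2:62114812-62114840, that of Iars1 at chr17:15193659-15193687 and that of Nupr1 at chr1:190645939-190645967, all on the forward strand. In 5 of the 6 sequences the element reads TGATGCAA, and in Trib3 it reads TGATGTAA. Not every listed gene with the element is shown, and that of Slc7a1 reads TGATGAAAC. Among genes not shown, Jdp2 and Fgf21, named after their values were seen, also held the element. They differed by -0.39 and -0.24 (IUGR minus sham). All 7 synthetase genes with the element were above 0, and so were all 10 with a window but no element. Of the 9 measured genes, the 2 with the element were above 0, as were 6 of the 7 without it. A link of the element with the differences was not tested. A second pattern, TGACGTNA, the core of cyclic AMP response elements, was present in 1 of the 10 windows, that of Ppp1r15a, and in 3.25% of all windows. A match describes letters in these windows only, and binding was not measured.

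None of the 9 genes changed in IUGR islets at an adjusted p under 0.05 (limma, Benjamini-Hochberg over all genes), a call that 0.248% of all 14506 genes reached. At an unadjusted p under 0.05 there were 3, Psat1, Chac1 and Atf4, all higher. Of all 14506 genes 2233 were higher at that threshold, and 26.1% passed it in either direction. The difference was above 0 in 8 of the 9, with a median of 0.27 on the log2 scale, while over all genes 55.1% were above 0 with a median of 0.04. After quantile normalization 6 of the 9 were above 0 with a median of 0.17, beside 49.4% of all genes. After median centring 6 of the 9 were above 0 with a median of 0.04, beside 28.1% of all genes with a median of -0.19. The median over the 14506 genes was 8.76 to 8.85 in IUGR litters, against 8.81 in sham replicate 1 and 8.48 to 8.55 in sham replicates 2 to 4. This gap was one of the chosen genes: over all 29214 probe sets the median difference was -0.02, with 46.05% above 0. The part of the gap between arrays in the median of 0.27 was not tested beyond these settings. Over the 10154 genes left without the dimmest 30%, which no longer hold Trib3, 70.8% were above 0 with a median of 0.14. In 2 of the 9, Psat1 and Chac1, every IUGR litter lay above every sham litter, as it did in 10% of all genes. After quantile normalization this held for Psat1 and Trib3, beside 7.24% of all genes, and the values of Chac1 then overlapped. With arrays weighted by their fit, 4 of the 9 passed (Chac1, Ddit3, Psat1 and Atf4), but so did 43.8% of all genes. Those weights were 7.82 in sham replicate 3 and 0.196 to 1.03 in the other sham litters.

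**Figure D1:**
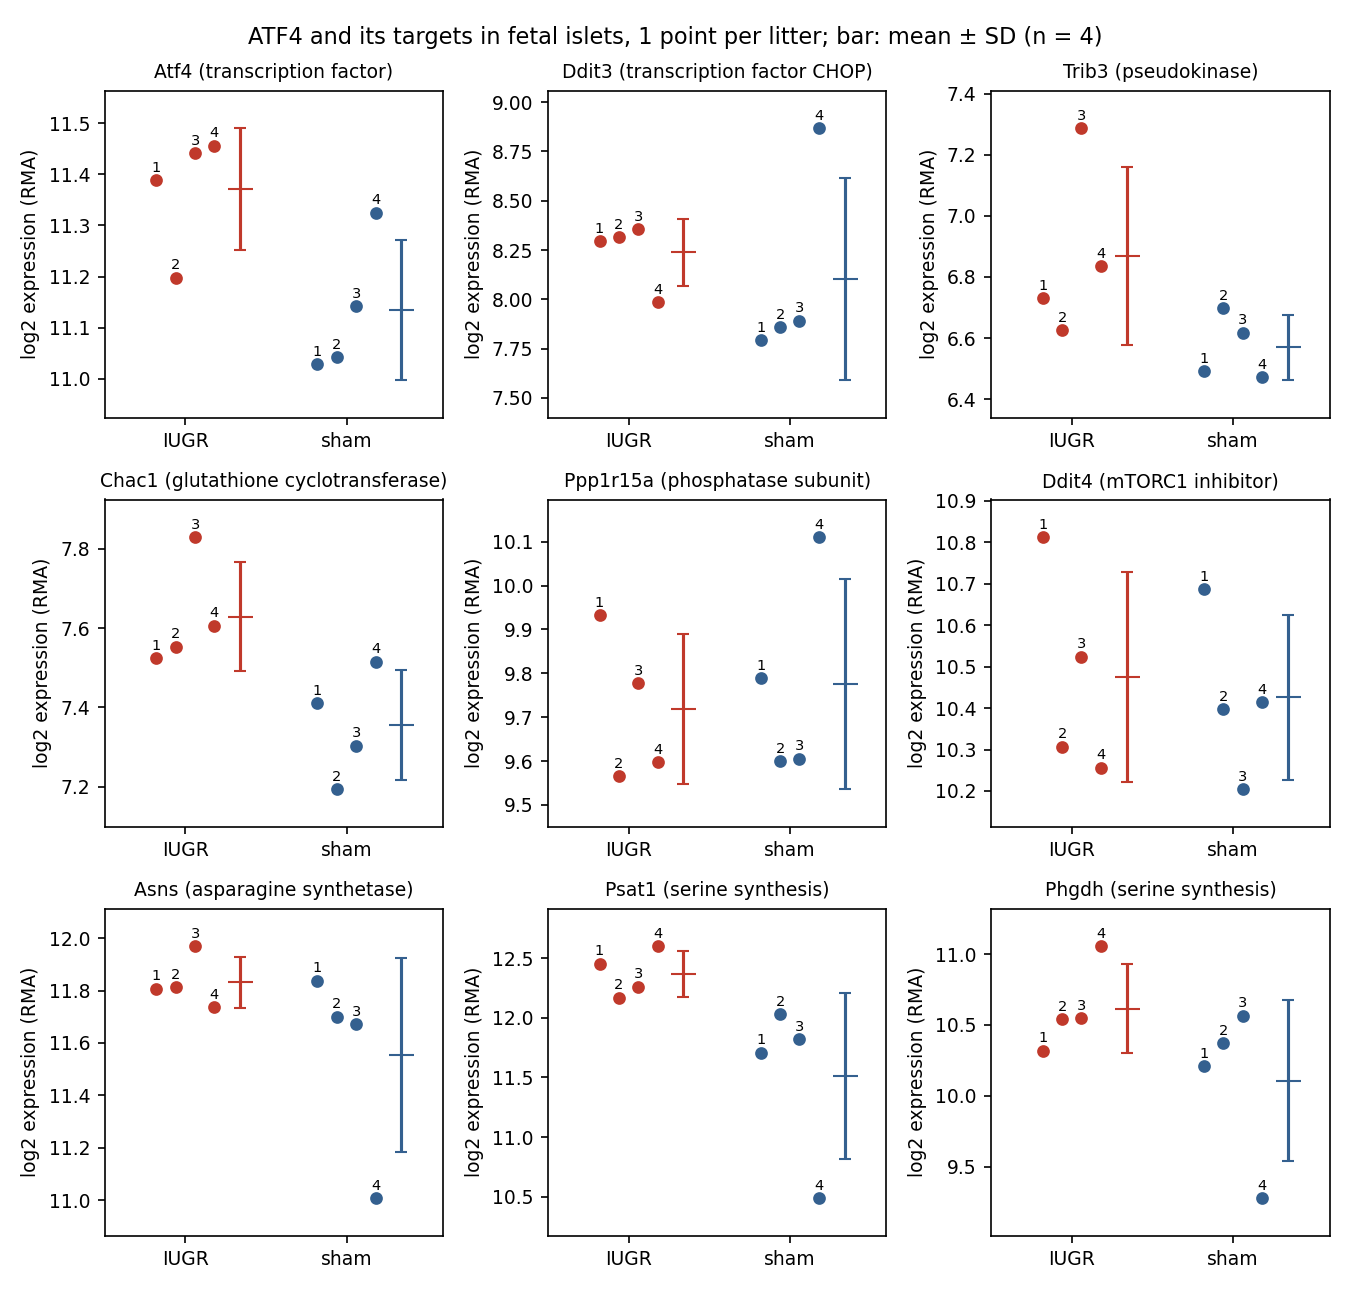
Log2 expression of the 9 measured genes (vertical axes, each with its own range) in IUGR and sham litters, with 1 point per litter numbered by replicate and a bar for the mean ± SD of 4 litters. Psat1 and Chac1 show no overlap between the groups, and sham replicate 4 stands high in Ddit3 and Ppp1r15a and low in Asns, Psat1 and Phgdh.

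Amino acid synthesis held the largest difference. Psat1, phosphoserine aminotransferase of the serine pathway, had 12.45, 12.17, 12.26 and 12.60 in IUGR replicates 1 to 4, against 11.71, 12.03, 11.82 and 10.49 in sham replicates 1 to 4. The lowest IUGR litter lay just above the highest sham litter, and sham replicate 4 lay 1.36 below the mean of the other 3 sham litters. The difference of 0.86 ± 0.31 (SE, n = 4 litters per group) did not pass (limma adjusted p = 0.149, 95% interval 0.14 to 1.58), and without sham replicate 4 it was 0.52. The dimmer Psat1 probe set gave 0.63 ± 0.27 (SE, adjusted p = 0.185 with all probe sets tested).

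Phgdh encodes phosphoglycerate dehydrogenase, which opens the same serine pathway. Its values were 10.32, 10.54, 10.55 and 11.06 in IUGR litters, against 10.21, 10.37, 10.57 and 9.28 in sham litters. The groups overlapped, and 3 sham litters lay within or just below the range of the IUGR litters. The difference was 0.51 ± 0.29 (SE, limma adjusted p = 0.282, 95% interval -0.15 to 1.16), 0.23 without sham replicate 4 and 0.04 with array weights.

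Asns, asparagine synthetase, is a classic target of amino acid shortage. It had 11.81, 11.81, 11.97 and 11.74 in IUGR litters, against 11.84, 11.70, 11.67 and 11.01 in sham litters. Sham replicate 1 lay within the IUGR range, and sham replicate 4 lay 0.73 below the other sham litters. The difference was 0.28 ± 0.18 (SE, limma adjusted p = 0.335, 95% interval -0.13 to 0.68), and 0.09 without sham replicate 4.

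The transcription factors gave smaller differences. Atf4 itself had 11.39, 11.20, 11.44 and 11.46 in IUGR litters, against 11.03, 11.04, 11.14 and 11.33 in sham litters. Its groups overlapped through IUGR replicate 2 and sham replicate 4. The difference was 0.24 ± 0.10 (SE, limma adjusted p = 0.185, 95% interval 0.01 to 0.47), and 0.12 after quantile normalization.

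Ddit3 encodes CHOP, a transcription factor that links lasting stress to cell death. It had 8.29, 8.32, 8.35 and 7.99 in IUGR litters, against 7.79, 7.86, 7.89 and 8.87 in sham litters. The highest of all 8 values was that of sham replicate 4, and the other 3 sham litters lay below every IUGR litter. With all litters the difference was 0.13 ± 0.24 (SE, limma adjusted p = 0.733, 95% interval -0.41 to 0.68). Without sham replicate 4 it was 0.39 (adjusted p = 0.110), without any 1 of the other sham litters 0.03 to 0.06, and after quantile normalization it was -0.08.

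Trib3 and Chac1 are late targets of ATF4 and CHOP. Trib3, a pseudokinase that restrains ATF4 and CHOP, had 6.73, 6.63, 7.29 and 6.83 in IUGR litters, against 6.49, 6.70, 6.62 and 6.47 in sham litters. IUGR replicate 3 stood above the rest, and IUGR replicate 2 lay below sham replicate 2. Trib3 was dim, with a mean signal at percentile 23.2 of all genes, and its difference of 0.30 ± 0.15 (SE, limma adjusted p = 0.231) was 0.16 without IUGR replicate 3. Chac1, which degrades glutathione, had 7.53, 7.55, 7.83 and 7.61 in IUGR litters, against 7.41, 7.19, 7.30 and 7.52 in sham litters. The groups met almost at the same value, IUGR replicate 1 and sham replicate 4, and IUGR replicate 3 was again the highest. The difference was 0.27 ± 0.11 (SE, limma adjusted p = 0.160, 95% interval 0.03 to 0.51).

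The feedback phosphatase gene and the mTORC1 inhibitor gene lay close to 0. Ppp1r15a encodes GADD34, the subunit that lets a phosphatase restore eIF2. It had 9.93, 9.57, 9.78 and 9.60 in IUGR litters, against 9.79, 9.60, 9.61 and 10.11 in sham litters, with overlap throughout and the highest value in sham replicate 4. The difference was -0.06 ± 0.14 (SE, limma adjusted p = 0.810), 0.05 without sham replicate 4 and -0.28 after quantile normalization. Ddit4 encodes REDD1, an inhibitor of mTORC1 that hypoxia and glucocorticoids also induce. It had 10.81, 10.31, 10.52 and 10.26 in IUGR litters, against 10.69, 10.40, 10.21 and 10.41 in sham litters, so that the litters of both groups were mixed. Its difference was 0.05 ± 0.15 (SE, limma adjusted p = 0.852, 95% interval -0.30 to 0.40), and -0.13 after quantile normalization.

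**Figure D2:**
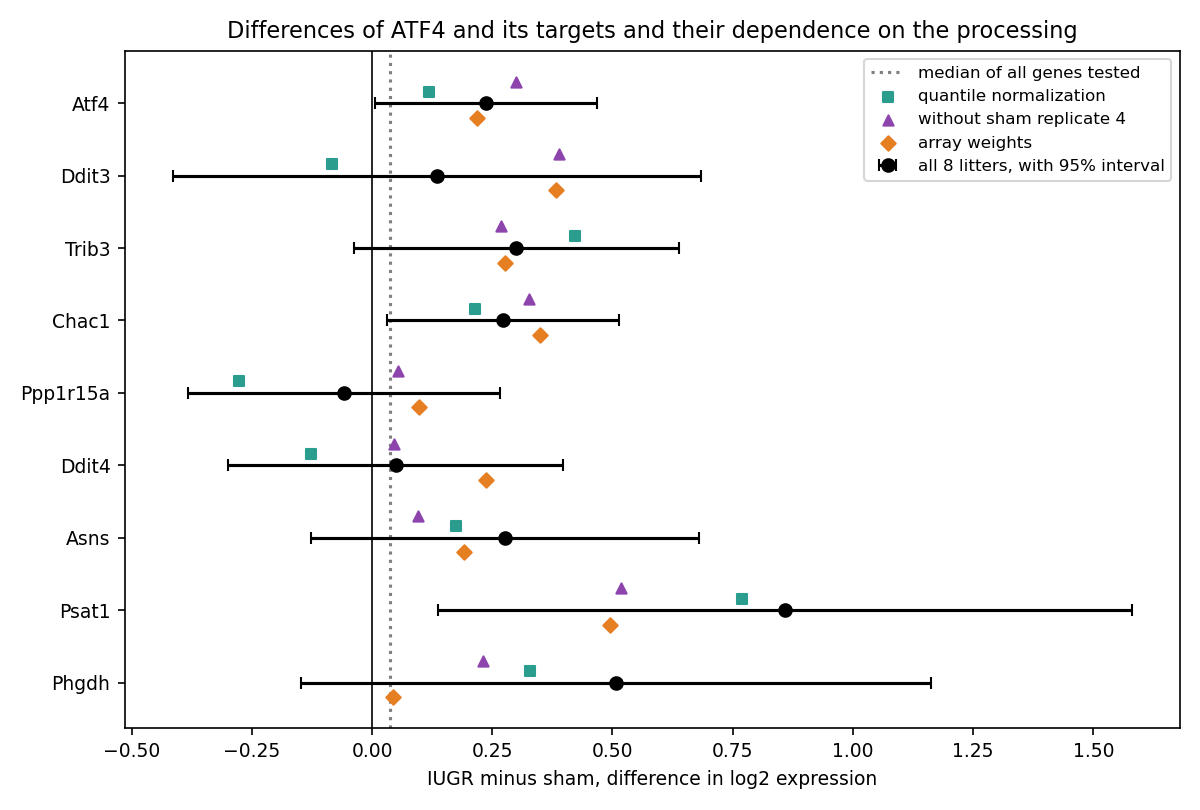
Difference in log2 expression between IUGR and sham litters (horizontal axis) for the 9 genes, as black points with 95% intervals over all 8 litters, and as coloured marks under 3 other settings. The intervals of Psat1, Chac1 and Atf4 lie above 0, the differences of Ddit3 and Ddit4 are below 0 after quantile normalization, and that of Ppp1r15a is on the other side of 0 without sham replicate 4 and with array weights.

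The litters did not rank the 9 genes in 1 order. Sham replicate 4 held the lowest of all 8 values in 4 genes, Psat1, Phgdh, Asns and Trib3, and the highest in 2, Ddit3 and Ppp1r15a. IUGR replicate 3 held the highest value in 3 genes, Trib3, Chac1 and Asns, and IUGR replicate 4 in 3 others, Atf4, Psat1 and Phgdh.

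Markers of several cell types moved with the same litters. The mean of 14 islet endocrine markers was 11.75, 11.41, 11.26 and 11.35 in IUGR litters, against 10.97, 10.85, 10.91 and 12.41 in sham litters, with Ins1, Ins2 and Gcg among the markers measured. Of these 14, 10 were above 0 with a median of 0.10, and none passed. Without sham replicate 4 the endocrine median was 0.60 and 3 passed, where 157 of all genes did. With array weights it was 0.63 and 10 passed, where 43.8% of all genes did. After quantile normalization it was -0.02, with 6 of the 14 above 0. The mean of 14 acinar markers was 11.53, 11.32, 11.08 and 11.99 in IUGR litters, against 10.39, 10.68, 10.92 and 9.48 in sham litters, and all 14 were higher in IUGR litters with a median of 1.06. The acinar median was 0.81 without sham replicate 4, and 0.49 with array weights, where 12 of the 14 were above 0. The mean of 20 liver proteins was 12.08, 11.30, 12.34 and 12.79 in IUGR litters, against 11.51, 9.52, 10.96 and 8.99 in sham litters. Like Psat1 and Phgdh, the acinar and liver means were highest in IUGR replicate 4 and lowest in sham replicate 4. The 10 duct markers ranged in mean from 10.95 to 11.40 in IUGR litters and from 9.68 to 10.39 in sham litters. All 10 were above 0 with a median of 0.97, and 7 had no overlap, beside 10% of all genes. Krt8 passed at 1.07 (limma adjusted p = 0.043), a call that 0.248% of all genes reached. After quantile normalization 0 of the 10 passed, as for all genes. All markers of mesenchyme (12), endothelium (10), macrophages and leukocytes (12) and erythroid cells (8) were lower in IUGR litters, with medians of -0.65, -0.21, -0.55 and -0.67. The mesenchyme median was -0.38 without IUGR replicate 4, and the erythroid median -0.43 without IUGR replicate 1. The endothelial median was -0.10 without IUGR replicate 4 and -0.32 without sham replicate 2, and 3 of the 10 endothelial markers were above 0 without sham replicate 4, and 6 with array weights (median 0.06). With array weights 2 of the 12 macrophage and leukocyte markers were also above 0. The part of these cells in the differences above was not tested, and in pooled islets fewer cells of a type and less RNA per cell cannot be told apart.

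**Figure D3:**
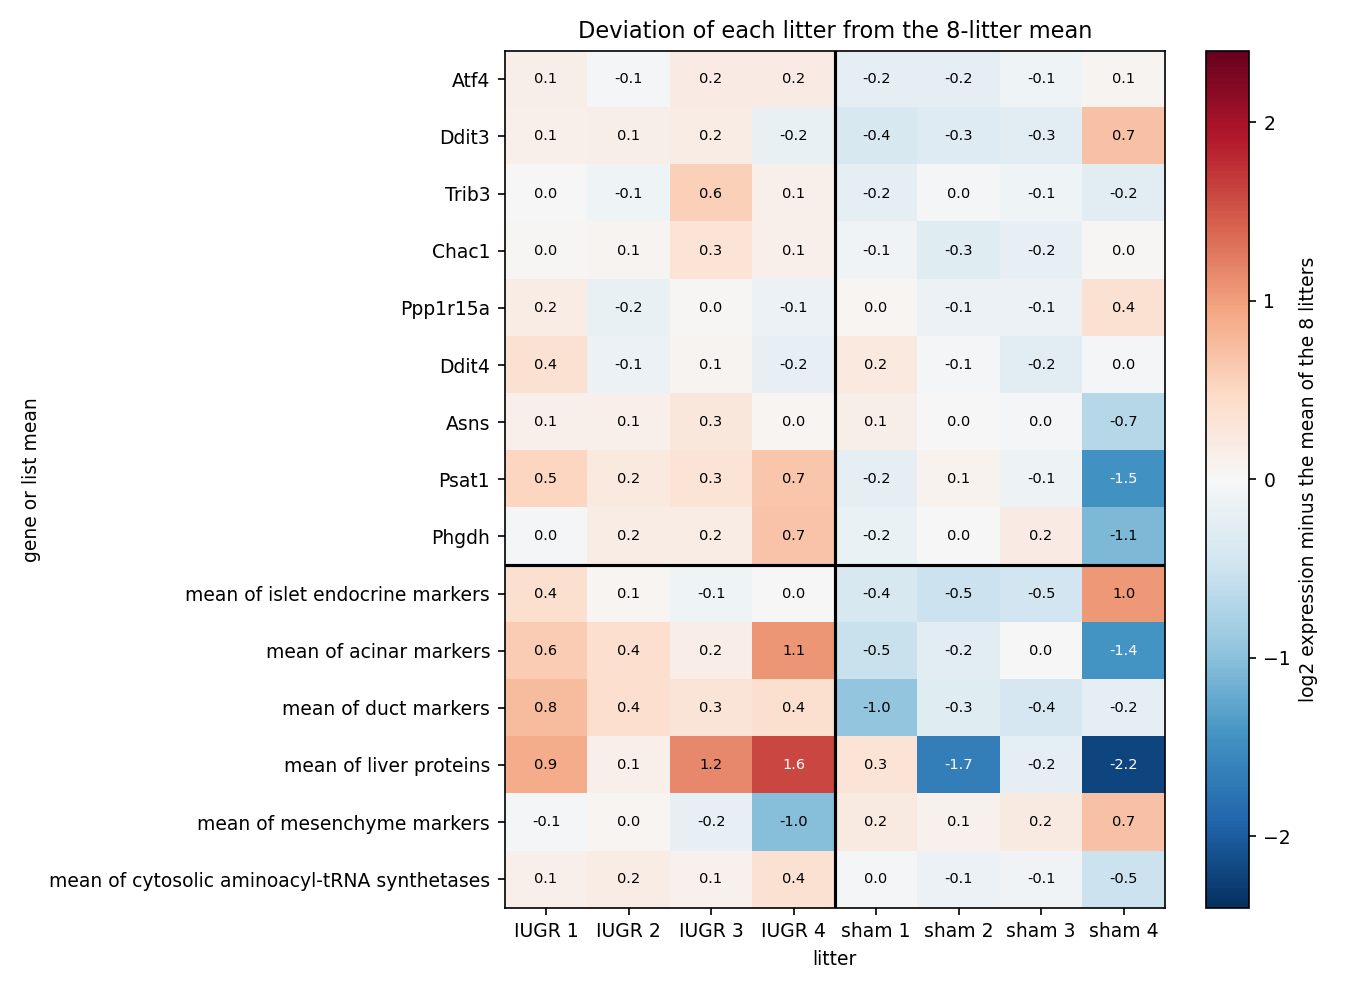
Log2 expression of each gene (upper rows), and of the mean of 6 gene lists (lower rows), minus its own mean over the 8 litters, in colour and in numbers, with IUGR litters left of the line and sham litters right of it. Sham replicate 4 is the only litter where Ddit3 is well above its mean while Psat1, Phgdh and Asns are well below theirs, and the same litter is high in endocrine and low in acinar and liver markers.

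By the smallest root mean square distance between centred values over the 8 litters, the genes most like Trib3 were Hormad2 (0.114), Slc1a1 (0.115), a glutamate transporter gene, and Aurkc (0.128). Those most like Asns were Nup42 (0.050), Srsf11 (0.053) and Rbm22 (0.058), and those most like Chac1 were Anks3 (0.031), Supt5h (0.055) and Mtss1 (0.058). For scale, the root mean square of the centred values themselves was 0.242 in Trib3, 0.273 in Asns and 0.181 in Chac1. None of these 9 genes passed (limma adjusted p from 0.122 to 0.489), nor did Trib3, Asns and Chac1, whose values they were chosen to match.

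Upstream of ATF4, 17 genes of the eIF2 kinases, eIF2, its exchange factor eIF2B and their regulators were measured, and none passed. Of these, 15 were above 0, with a median of 0.25, and 4 had no overlap, all higher, beside the 10% of all genes. After quantile normalization 1 of the 17 had no overlap, beside 7.24%. Eif2ak4, which encodes GCN2, had 9.76, 9.55, 9.70 and 9.74 in IUGR litters, against 9.42, 9.17, 9.08 and 9.12 in sham litters, with no overlap and a difference of 0.49 ± 0.10 (SE, limma adjusted p = 0.077). Without sham replicate 1, a setting in which 2738 of all genes passed, Eif2ak4 passed at 0.57 (adjusted p = 0.007). Eif2ak3, which encodes PERK, differed by 0.45 (adjusted p = 0.105), Eif2b5 by 0.40 and Dnajc3, an inhibitor of PERK, by 0.42. The list median was 0.14 without sham replicate 4 and 0.09 after quantile normalization, with 11 of 17 above 0 in each.

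Among 7 other transcription regulators of the response, 6 were above 0 with a median of 0.39, and none passed. Nupr1 had 11.35, 10.49, 10.63 and 11.46 in IUGR litters, against 9.96, 9.72, 10.002 and 9.02 in sham litters. No litters overlapped, and its difference of 1.31 ± 0.29 (SE, limma adjusted p = 0.087) was larger than that of any of the 9 genes; acinar cells are known to express Nupr1 under stress. Nfe2l2, the NRF2 factor of the antioxidant response, differed by 0.58 (adjusted p = 0.072), Atf5 by 0.55 and Cebpb, a partner of ATF4, by 0.30.

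Of 13 further enzymes of serine, glycine, proline, transsulfuration and one-carbon metabolism, 12 were above 0 with a median of 0.48, and none passed. Cth and Cbs, the enzymes that make cysteine from homocysteine and are abundant in liver, differed by 1.67 ± 0.56 (limma adjusted p = 0.138) and 1.26 ± 0.32 (SE, adjusted p = 0.104). Gpt2 differed by 0.69 and Aldh18a1, which starts proline synthesis, by 0.48. Like Psat1, Cth was highest in IUGR replicate 4 at 11.50 and lowest in sham replicate 4 at 7.27.

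All 19 measured cytosolic aminoacyl-tRNA synthetases were above 0, with a median of 0.36 and a range of 0.00 to 0.70. None passed, and 11 had an unadjusted p under 0.05, all higher, beside 2233 higher of all 14506 genes (26.1% in either direction). No overlap was found in 13, all higher, beside the 10% of all genes. Rars1, for arginine, had 11.21, 11.23, 11.23 and 11.35 in IUGR litters, against 10.63, 10.69, 10.79 and 10.33 in sham litters. Its difference of 0.64 ± 0.11 (SE, limma adjusted p = 0.058) did not pass. Without sham replicate 4, where 157 of all genes passed, it passed at 0.55 (limma adjusted p = 0.041). Lars1, for leucine, differed by 0.70 (adjusted p = 0.087), Mars1, for methionine, by 0.54 and Eprs1, for glutamate and proline, by 0.48. The 7 synthetases with the element in their window had a median of 0.45 (0.27 to 0.63), and the 10 with a window but no element 0.35 (0.00 to 0.70). That difference was not tested. After quantile normalization 18 of 19 were above 0 with a median of 0.22, and 8 had no overlap, all higher, beside 7.24% of all genes. The list mean was highest in IUGR replicate 4 at 11.43 and lowest in sham replicate 4 at 10.53, as were the acinar and liver means.

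Amino acid transporters that ATF4 is known to induce did not share a direction. Of 10 measured, 5 were above 0, the median was 0.00, and none passed. Slc7a1, a transporter of arginine and lysine with the element in its window, differed by 0.39 (limma adjusted p = 0.159), Slc1a4 by 0.60, Slc7a11, which imports cystine, by 0.47 and Slc7a3 by -0.27. After quantile normalization 4 of the 10 were above 0 with a median of -0.07, and 4 were lower in every IUGR litter than in any sham litter, beside 7.5% of all genes. These were Slc7a3 and, named after their values were seen, Slc1a5 (-0.44 as deposited), Slc6a9 (-0.36) and Slc7a6 (-0.25). Slc7a11 was highest in IUGR replicate 3 at 8.10, the litter that was also highest in Trib3, Chac1 and Asns.

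Among 15 secreted stress factors and other targets, 10 were above 0 with a median of 0.08, and none passed. Herpud1, of the degradation machinery of the endoplasmic reticulum, differed by 0.83 ± 0.14 (SE, limma adjusted p = 0.063), Ero1a, an oxidase of protein folding, by 0.53 (adjusted p = 0.073), Sqstm1 by 0.26 and Adm2 by 0.24. The list median was 0.04 without IUGR replicate 1 and 0.13 without IUGR replicate 4 or sham replicate 1, and after quantile normalization the list had 5 above 0 and a median of -0.11. Chaperones and ATF6 or XBP1 targets gave 14 of 17 above 0 with a median of 0.21 and none passing, Sel1l differing by 0.78, Creld2 by 0.48, Pdia4 by 0.27 and Xbp1 by 0.27. That median was 0.09 without sham replicate 2, 0.13 without IUGR replicate 4 and 0.06 after quantile normalization, and after median centring it was -0.02 with 7 of 17 above 0.

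Sensors upstream of mTORC1 had 10 of 12 above 0 with a median of 0.18 and none passing, the median being 0.11 without sham replicate 2 and 0.01 after quantile normalization. Nprl2 differed by 0.47, Akt1s1 by 0.30, Sesn1, the sister gene of Sesn2, by 0.29 (limma adjusted p = 0.328) and Tsc1 by 0.24. Without sham replicate 4 the difference of Sesn1 was 0.15. Without sham replicate 1, where 2738 of all 14506 genes passed, it was 0.46 and passed (limma adjusted p = 0.031). For the other inducers of Ddit4, 14 of 15 hypoxia-induced genes were above 0 with a median of 0.48 and none passing, Ndrg1 differing by 0.95, Pdk1 by 0.95, Hk2 by 0.76 and Bnip3 by 0.69. Of these 15, 6 had no overlap, all higher, beside 10% of all genes, and 3 after quantile normalization, beside 7.24%. The hypoxia median was 0.29 after quantile normalization, with 13 of 15 above 0, and 0.25 after median centring. Of 10 glucocorticoid-induced genes 4 were above 0 with a median of -0.11 and none passing, Mt2A differing by 0.43, Nr3c1, the receptor gene, by 0.26, Mt1 by 0.24 and Dusp1 by -0.26. The glucocorticoid median was -0.29 after quantile normalization, 0.05 with array weights (7 of 10 above 0) and 0.04 without sham replicate 1, and it lay from -0.17 to -0.02 without any 1 of the other litters. Of 9 p53 targets, 7 were above 0 with a median of 0.17 (0.10 without IUGR replicate 2), and none passed.

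**Figure D4:**
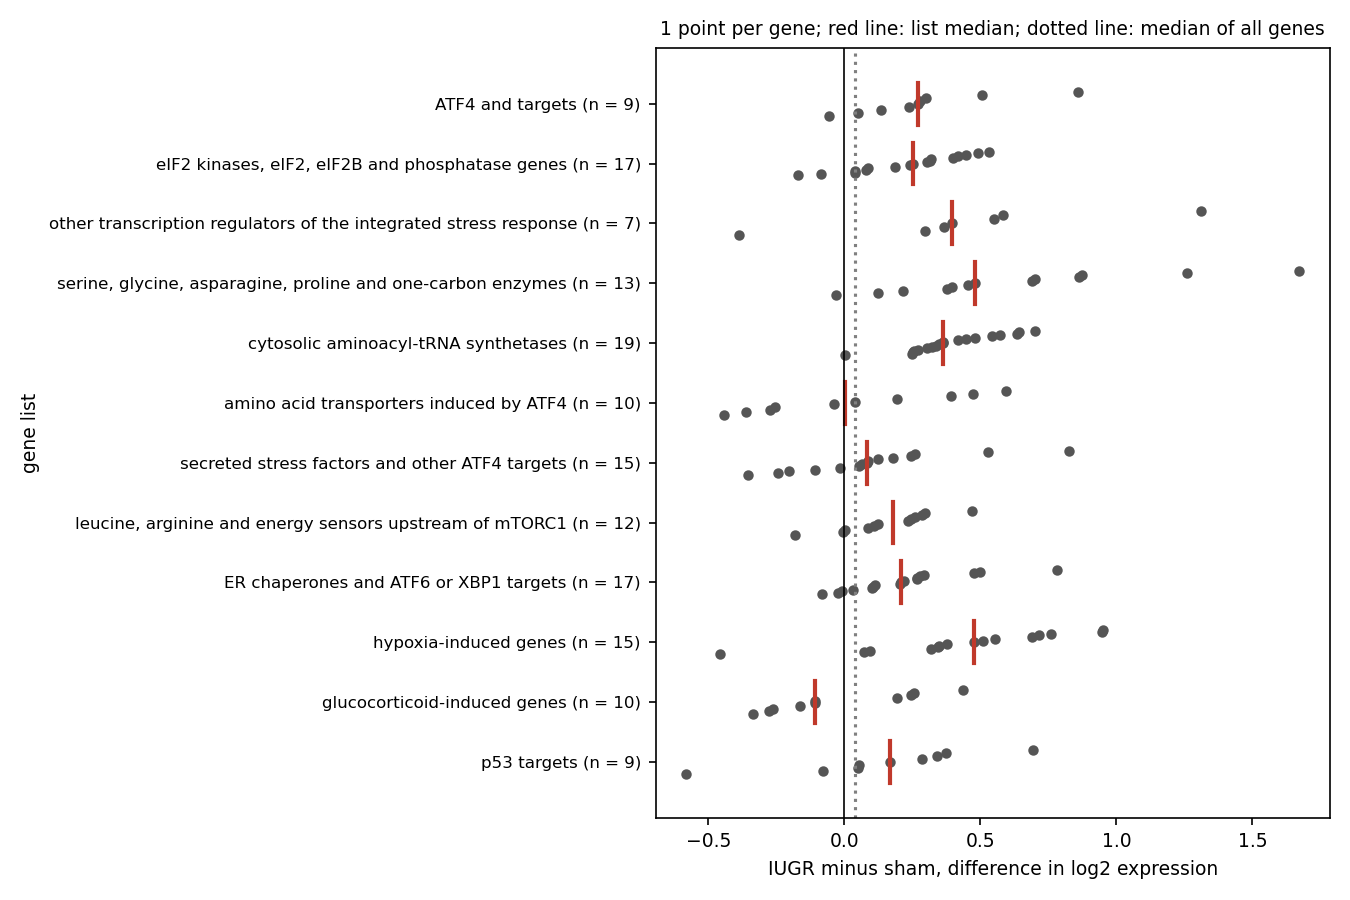
Difference in log2 expression between IUGR and sham litters (horizontal axis) for each measured gene of 12 lists (rows), with the list median as a red line and the median of all genes as a dotted line. The synthetases lie from 0.00 to 0.70, while the transporters are spread on both sides of 0.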

How the data were processed

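The deposited table holds log2 expression values of 29214 probe sets on 8 whole-transcript arrays. Per the submitters' processing notes the authors used RMA, whose software and version the labels do not state. Of the probe sets, 15310 had 1 gene in the platform annotation, 323 several and 13581 none, and 15279 of the 15310 matched a gene identifier of RefSeq assembly GRCr8. The brightest probe set stood for each of 14506 genes (527 had several). The log2 values were compared as deposited, with lmFit and eBayes of limma 3.58.1 (R 4.3.3), a 2-group design, and p-values adjusted over all genes. Arrays have no read depth, and their number limits the precision. Gene values within an array spread over an interquartile range of 3.53 to 3.62 in IUGR litters and 3.63 in sham replicate 1. In sham replicates 2 to 4 that range was narrower, at 3.06 to 3.23. The fit was first tested on simulated data. P-values measure the spread between litters.

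The genes and lists were chosen with earlier results of these data known. All 9 measured genes were named, up to 4 of each pathway list by smallest p, and the 3 genes closest to each of Trib3, Asns and Chac1. Tars1 and Iars1 were named as further synthetase genes with the promoter element, and not all of the 7 that held it were named. Krt8 was named because it passed the threshold. Promoter sequences are RefSeq's, and all 10 genes had one. No set test was run.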

Additional observations from a re-analysis of the deposited data

Results flagged for a closer look

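A value far from the other 3 litters of its group (gap over range above Dixon's 95% critical value) was found in 9 of 116 groups checked, where chance gives about 1 in 20. Ddit3 was flagged on both sides: it was low in IUGR replicate 4 at 7.99, and high in sham replicate 4 at 8.87. Sham replicate 4 was also low in Cth at 7.27, Akt1s1 at 9.65, Pdk1 at 9.49 and Rbm22 at 10.57. Rars1 was high in IUGR replicate 4 at 11.35, Slc7a11 high in IUGR replicate 3 at 8.10, and Hormad2 high in sham replicate 2 at 6.67.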

How the results depend on the processing

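The count of 36 genes past the threshold was 0 after quantile normalization, cyclic loess or with the replicate block, and 1 after median centring. It was 3 with all probe sets tested, 59 without the dimmest genes and 6358 with array weights. With 1 litter left out the count was 0 to 2738. No gene passed without IUGR replicate 1 or 3 or sham replicate 2 or 3, and 2 passed without IUGR replicate 4. The count was 43 without IUGR replicate 2, 157 without sham replicate 4 and 2738 without sham replicate 1. The number of the 9 genes past the threshold was 0 in every setting but array weights, where 43.8% of all genes passed. The weights were 0.265, 1.03, 7.82 and 0.196 in sham replicates 1 to 4, and 0.591 to 1.88 in IUGR litters. The weighted sham mean thus rested mostly on sham replicate 3. With these weights 4 of the 9 passed: Chac1 at 0.35 (limma adjusted p = 0.008), Ddit3 at 0.38 (0.017), Psat1 at 0.49 (0.022) and Atf4 at 0.22 (0.032). Phgdh was at 0.04 (0.828), against 0.51 with equal weights. Signs turned for Ddit3 after quantile normalization (-0.082) and median centring (-0.096), for Ppp1r15a with array weights (0.10) and without sham replicate 4 (0.054), and for Ddit4 after quantile normalization (-0.13), cyclic loess (-0.13), median centring (-0.18), without IUGR replicate 1 (-0.063) and without sham replicate 3 (-0.024). Median centring also turned Aurkc (-0.076) and Rbm22 (-0.035), and under it the median of all genes was -0.19, where it had been 0.04. Another 49 named genes were checked, picked in these same data by smallest p in their list or by closeness to a member. Of these, 38 passed with array weights, where 6358 of all 14506 genes did. Without sham replicate 1, 20 passed (among them Eif2ak4, Eif2ak3, Nupr1, Rars1, Lars1, Herpud1 and Sesn1), where 2738 of all 14506 did. Rars1 passed without sham replicate 4, where 157 of all 14506 genes did, and Hk2 without IUGR replicate 2, where 43 did. Because of how the genes were picked, these counts are no support for them. The causes were not tested.

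With 1 litter left out, the differences lay between 0.20 and 0.30 for Atf4, 0.03 and 0.39 for Ddit3, 0.16 and 0.38 for Trib3, 0.21 and 0.33 for Chac1, -0.13 and 0.05 for Ppp1r15a, -0.06 and 0.14 for Ddit4, 0.09 and 0.37 for Asns, 0.52 and 1.03 for Psat1, and 0.23 and 0.66 for Phgdh. Equal replicate numbers are not stated to pair litters, and deviations of same-numbered litters correlated at -0.435, 0.095, -0.124 and -0.128 across genes. With the replicate number as a block Psat1 kept its difference of 0.86 and had an adjusted p of 0.268.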
